A study of Mus musculus with 4 samples.

Results

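The genes described here are the Toll-like receptor genes of mouse macrophages and Cd14, the co-receptor that passes bacterial lipid to several of these receptors. They were taken from a list of 10 genes (Tlr1, Tlr2, Tlr4, Tlr5, Tlr6, Tlr7, Tlr8, Tlr9, Tlr13 and Cd14), each represented by the probe set that carries its symbol alone and has the highest mean over the 4 arrays. Probe sets of this kind were found for 9 of the 10, out of 19938 named genes, and all 9 were bright enough to be among the 14995 genes tested. No probe set named here carried Tlr5 alone, so this gene has no expression value here.

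Marrow cells of C57BL/6J mice were grown for 7 days and then sorted, with 2 arrays for each of the groups. The GM-CSF M1 cells had GM-CSF (granulocyte-macrophage colony-stimulating factor) in the medium and were sorted as CD45+, MHC class II+, CD8a- and carrying the macrophage protein of the gene Adgre1. The M-CSF M2 cells had M-CSF, the macrophage colony-stimulating factor, given as 20% supernatant of the fibroblast line L929, and were sorted as CD45+, CD11b+ and carrying the Adgre1 protein. No other treatment, allele or microbial stimulus is named in the labels, and mouse age is not given there. The supernatant holds whatever else L929 cells secrete, and the gates differ too, so growth factor, supernatant and gate cannot be told apart. Whether the replicates came from separate cultures or animals is not stated, and p-values therefore reflect only how far these samples spread. For the M-CSF cells that spread may be technical. The GM-CSF replicates differed in Xist and a Y-linked gene (values below), as cells of different sex do, and the labels used here give no sex.

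Toll-like receptors sense microbial molecules and signal through adaptor proteins such as MyD88 to NF-kB and interferon regulatory factors. Receptors of the cell surface (TLR1, TLR2, TLR4 and TLR6) bind lipids and lipoproteins of microbes, and TLR2 works in pairs with TLR1 or TLR6. Receptors of the endosome (TLR7, TLR8, TLR9 and TLR13) bind nucleic acids and reach that compartment with the help of the chaperone UNC93B1. Macrophages carry many of these receptors before any infection, which lets them answer bacteria without prior contact.

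Values are log2 expression values, so a difference of 1 is a 2-fold difference. All 7 named genes of a list of 8 macrophage markers lay above the background reference of 5.90 in both groups, in the mean of the arrays. This reference is the 95th percentile of the olfactory receptor genes, averaged over the arrays. All 9 receptor and Cd14 probe sets also lay above it in both groups. The GM-CSF replicates lay farther apart than the M-CSF replicates, with an SD of 0.325 for the log2 difference between arrays against 0.180 over the 14995 genes. Xist, the non-coding RNA that silences an X chromosome, read 11.58 in GM-CSF replicate 1 and between 4.53 and 4.93 in the other arrays, and the Y-linked gene Eif2s3y read 3.66 there and between 9.10 and 9.32 in the others. The values are from bulk samples, in which fewer cells of a type and less RNA per cell cannot be told apart.

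To show the DNA in front of the receptors whose values are described below, the 250 bases before the transcription start are printed for Tlr2 and Tlr13, whose arrays were higher in GM-CSF cells, and for Tlr1 and Tlr9, whose arrays were lower. The sequences are RefSeq's on GRCm38.p6, from which windows of 7 of the 10 listed genes were used (9 windows, with 2 each for Tlr1 and Tlr6). A window of Tlr5, which has no expression value here, is among them. Windows on the chromosome of Cd14 were left out for the listed genes, so its lack of a window does not show that RefSeq holds none. Tlr4 and Tlr7 had no window here. Capitals mark matches to any of 3 short motifs searched on both strands.
Tlr2 (chr3:83841609-83841858, minus strand): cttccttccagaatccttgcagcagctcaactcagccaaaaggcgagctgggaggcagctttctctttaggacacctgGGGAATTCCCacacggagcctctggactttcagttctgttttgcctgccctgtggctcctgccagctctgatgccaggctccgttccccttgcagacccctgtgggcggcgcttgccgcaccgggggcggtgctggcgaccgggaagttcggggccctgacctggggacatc
Tlr13 (chrX:106143025-106143274, plus strand): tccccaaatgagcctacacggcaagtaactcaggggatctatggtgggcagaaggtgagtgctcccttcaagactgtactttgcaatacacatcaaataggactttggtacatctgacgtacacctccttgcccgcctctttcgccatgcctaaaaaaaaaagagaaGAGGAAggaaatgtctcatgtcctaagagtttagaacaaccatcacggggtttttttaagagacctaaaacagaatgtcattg
Tlr1, first of 2 windows (chr5:64933559-64933808, minus strand): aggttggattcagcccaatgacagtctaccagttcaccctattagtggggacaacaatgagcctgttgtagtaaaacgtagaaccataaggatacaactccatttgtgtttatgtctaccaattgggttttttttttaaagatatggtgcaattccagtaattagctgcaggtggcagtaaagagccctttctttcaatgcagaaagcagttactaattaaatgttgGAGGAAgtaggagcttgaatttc
Tlr9 (chr9:106222348-106222597, plus strand): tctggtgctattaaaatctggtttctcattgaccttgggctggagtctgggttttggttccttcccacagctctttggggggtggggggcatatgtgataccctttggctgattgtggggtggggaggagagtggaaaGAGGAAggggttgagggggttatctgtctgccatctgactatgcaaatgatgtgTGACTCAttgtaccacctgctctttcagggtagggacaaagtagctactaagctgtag

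The motifs, whose letters were set after the windows had been seen, were a core of the macrophage factor PU.1 (GAGGAA), an NF-kB half-site form (GGGAATT) and an AP-1 form (TGANTCA). The Tlr2 window holds the NF-kB form on either strand, at positions -172 to -166 and -169 to -163 counted back from the start, as matches that overlap each other. The other windows printed each hold the PU.1 core, in Tlr1 at -23 to -18, in Tlr9 at -112 to -107 and in Tlr13 at -83 to -78. Tlr9 also holds the AP-1 form at -58 to -52. Of all 9 windows, 4 hold the PU.1 core, against 23.3% of the 32851 RefSeq windows of the same length, with no chromosome left out. For the NF-kB form the counts are 1 of 9 against 3.08%, and for the AP-1 form 1 of 9 against 6.75%. The Tlr8 window, not printed, holds the PU.1 core at -77 to -72, and the other Tlr1 window holds none of the motifs. The PU.1 core stands in front of receptors with differences above 0 (Tlr8 and Tlr13) and below 0 (Tlr1 and Tlr9). A match of letters does not show binding.

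Cd14 and Tlr2 were higher in GM-CSF cells, and none of the other 7 genes passed the test. Cd14 read 11.45 and 11.57 in GM-CSF replicates 1 and 2 and 9.83 and 9.87 in the M-CSF replicates. The GM-CSF arrays lay well above the M-CSF arrays, and both pairs were tight. The difference was 3.16-fold (log2 1.66 ± 0.11 SE, 95% interval 1.40 to 1.92, n = 2 per group, adjusted p = 0.00057 with limma). CD14 binds lipopolysaccharide and lipopeptides and hands them to TLR4 and TLR2. With each array left out in turn, the log2 difference of Cd14 ran from 1.60 to 1.72.

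Tlr2, the receptor for bacterial lipoproteins, read 10.80 and 10.36 in GM-CSF replicates 1 and 2 and 9.73 and 9.53 in the M-CSF replicates. Both GM-CSF arrays lay above both M-CSF arrays, by more than either pair differed within itself. Tlr2 was 1.93-fold higher (log2 0.95 ± 0.17 SE, 95% interval 0.53 to 1.37, adjusted p = 0.0209 with limma). It lost its call without M-CSF replicate 1 (limma, adjusted p = 0.159) and without M-CSF replicate 2 (adjusted p = 0.221), when the spread came from the wider GM-CSF pair. Its log2 difference was 1.05 and 0.85 in these fits.

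Of the 9 genes, 2 were called, both higher and 0 lower. Among all 14995 genes tested, 10.7% passed, 6.18% as higher in GM-CSF cells and 4.53% as lower. With so few genes, 2 of 9 is not far from that background. At an unadjusted p under 0.05 in limma, 5 of the 9 passed, against 25.5% of all genes tested. The median log2 difference was 0.28 over the 9 genes and -0.013 over all genes tested, with 6 of the 9 above 0 and 3 below. Both GM-CSF arrays lay above both M-CSF arrays for 3 of the 9 genes (Cd14, Tlr2 and Tlr13) and below both for 3 (Tlr1, Tlr9 and Tlr6). The same held for 26.3% and 29.2% of all genes tested, so neither share of the members stands far from the background.

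**Figure D1:**
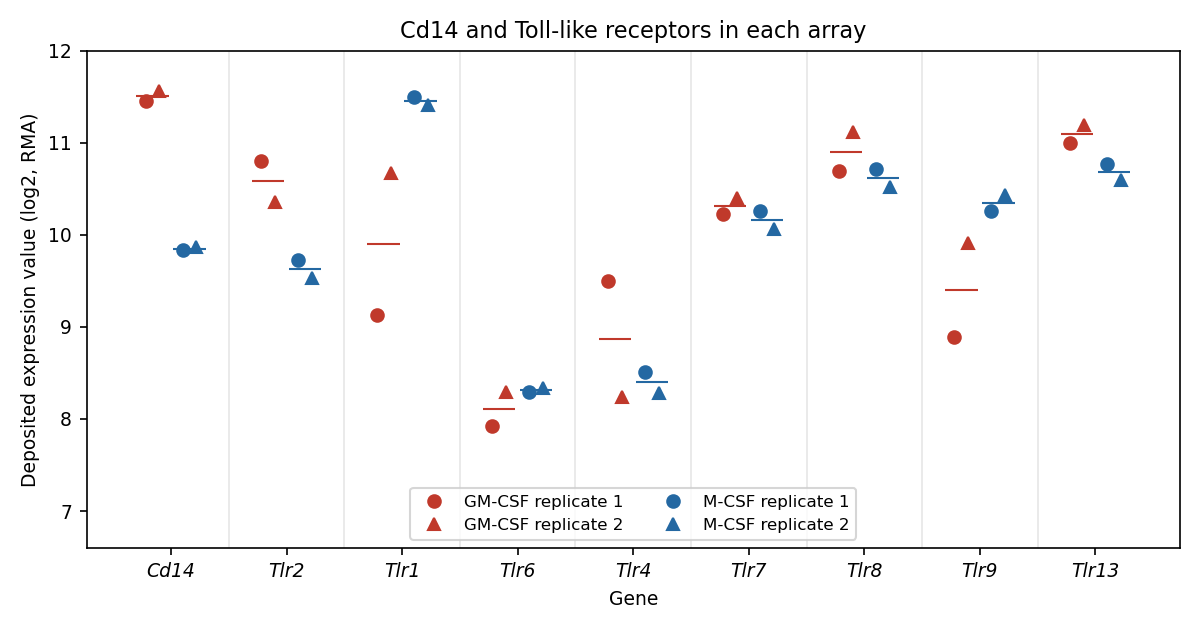
Deposited log2 expression values of Cd14 and the Toll-like receptor genes (x axis) in each of the 4 arrays, red for GM-CSF and blue for M-CSF cells, circles for replicate 1 and triangles for replicate 2, with group means as lines. Levels can be compared within a gene and not between genes. The GM-CSF points of Cd14 (11.45 and 11.57) lie above its M-CSF points (9.83 and 9.87), while the GM-CSF points of Tlr1, Tlr4 and Tlr9 lie far apart.

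Neither gene for a partner of TLR2 passed, and both had differences below 0. Tlr1, whose protein pairs with TLR2 to bind triacylated lipopeptides, read 9.13 and 10.67 in GM-CSF replicates 1 and 2 and 11.50 and 11.42 in the M-CSF replicates. Both GM-CSF arrays were lower than both M-CSF arrays, but the GM-CSF replicates themselves differed by 1.54 on the log2 scale. The log2 difference of Tlr1 was -1.56 ± 0.45 SE (95% interval -2.66 to -0.46), the lowest of the 9 genes, and it did not pass (adjusted p = 0.0858 with limma). It was -2.33 with GM-CSF replicate 1 as the lone GM-CSF array and -0.79 with replicate 2. With array weights, which count the more scattered arrays less, Tlr1 passed narrowly (limma, adjusted p = 0.049), and over the settings that kept all 4 arrays its adjusted p ran up to 0.331 (limma, trended and robust variance).

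Tlr6, whose protein pairs with TLR2 to bind diacylated lipopeptides, read 7.92 and 8.29 with GM-CSF, against 8.30 and 8.34 with M-CSF. Replicate 2 of the GM-CSF cells was close to the M-CSF arrays, and the groups only just failed to overlap. The log2 difference was -0.21 ± 0.15 SE and did not pass (adjusted p = 0.436 with limma). Tlr1 and Tlr6 are close paralogs that lie side by side, and their probes may not part the transcripts fully.

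Tlr4, the lipopolysaccharide receptor, gave no direction that held across the GM-CSF arrays. It read 9.50 in GM-CSF replicate 1 and 8.24 in replicate 2, against 8.51 and 8.28 in the M-CSF replicates. The first GM-CSF array was above both M-CSF arrays and the second just below both. The log2 difference was 0.47 ± 0.38 SE (95% interval -0.45 to 1.39, adjusted p = 0.516 with limma). GM-CSF replicate 1 alone stood 1.10 above the M-CSF mean, and replicate 2 alone gave a difference of -0.16. The Cd14 difference therefore came without a matching call for Tlr4, whose interval still reaches differences of more than 2-fold.

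None of the receptors for RNA in the endosome passed, and their differences were all above 0. Tlr7, which senses single-stranded RNA, read 10.23 and 10.40 with GM-CSF, against 10.26 and 10.07 with M-CSF. These values overlapped, and the log2 difference was 0.15 ± 0.13 SE (95% interval -0.15 to 0.46, adjusted p = 0.531 with limma). Tlr8, its neighbour and paralog, read 10.69 and 11.11 against 10.72 and 10.52. Only GM-CSF replicate 2 stood above the M-CSF arrays, and the log2 difference was 0.28 ± 0.17 SE (95% interval -0.13 to 0.69, adjusted p = 0.369 with limma). Tlr13, which senses bacterial ribosomal RNA, read 11.00 and 11.19 against 10.77 and 10.60. Both GM-CSF arrays were higher, by a log2 difference of 0.41 ± 0.13 SE (95% interval 0.11 to 0.72) that did not pass after adjustment (adjusted p = 0.0976 with limma).

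Tlr7, Tlr8 and Tlr13 lie on the X chromosome, and Tlr7 is known to escape X inactivation in some immune cells. In GM-CSF replicate 1, the array with high Xist, the 3 genes read lower than in GM-CSF replicate 2, by -0.17, -0.42 and -0.196 on the log2 scale. Without that array the log2 differences between groups were 0.24 for Tlr7, 0.49 for Tlr8 and 0.51 for Tlr13. Without GM-CSF replicate 2 they were 0.065, 0.069 and 0.31, so the differences were smaller against the array with high Xist. The part of sex in these values was not tested.

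Tlr9, the endosomal receptor for unmethylated CpG DNA, leaned the other way from the RNA receptors. It read 8.89 and 9.91 with GM-CSF, against 10.26 and 10.43 with M-CSF. Both GM-CSF arrays were lower, and replicate 1 lay farther from the M-CSF arrays than replicate 2. The log2 difference was -0.95 ± 0.31 SE (95% interval -1.71 to -0.19), and it did not pass (adjusted p = 0.119 with limma). GM-CSF replicate 1 alone gave -1.46 and replicate 2 alone -0.44.

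**Figure D2:**
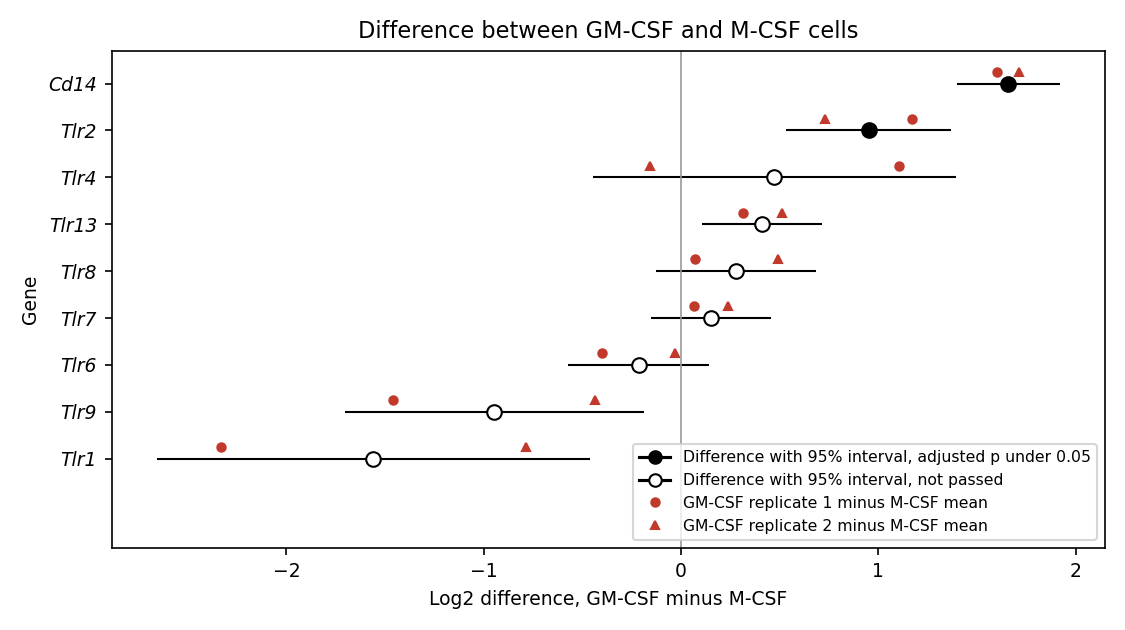
Log2 difference of each gene between GM-CSF and M-CSF cells (x axis, genes on the y axis), with black points and 95% intervals from limma, filled where the adjusted p was under 0.05. Red symbols give each GM-CSF array minus the M-CSF mean. Cd14 (1.66) and Tlr2 (0.95) are filled, and the red symbols of Tlr4 lie on either side of 0 (1.10 and -0.16).

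The GM-CSF arrays themselves differed in several of these receptors. They also differed in Xist and Eif2s3y, as given above, and the part of sex in these gaps was not tested. Replicate 1 was lower than replicate 2 by 1.54 for Tlr1 and 1.02 for Tlr9 on the log2 scale, and higher by 1.26 for Tlr4. These 3 of 9 genes were at least 2-fold apart within the GM-CSF pair, against 1.51% of all genes tested. The genes tested include dim ones, whose differences RMA compresses, while all 9 genes here lay above the background reference. The gap of Tlr1 was larger than that of 99.5% of genes tested, that of Tlr4 larger than 99.1% and that of Tlr9 larger than 98.5%. The median gap of the 9 genes was 0.42 in the GM-CSF pair and 0.17 in the M-CSF pair, against 0.14 and 0.11 over all genes tested. No gene of the 9 differed by more than 0.24 between the M-CSF replicates. Cd14, with a GM-CSF gap of 0.11, did not take part in this spread.

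**Figure D3:**
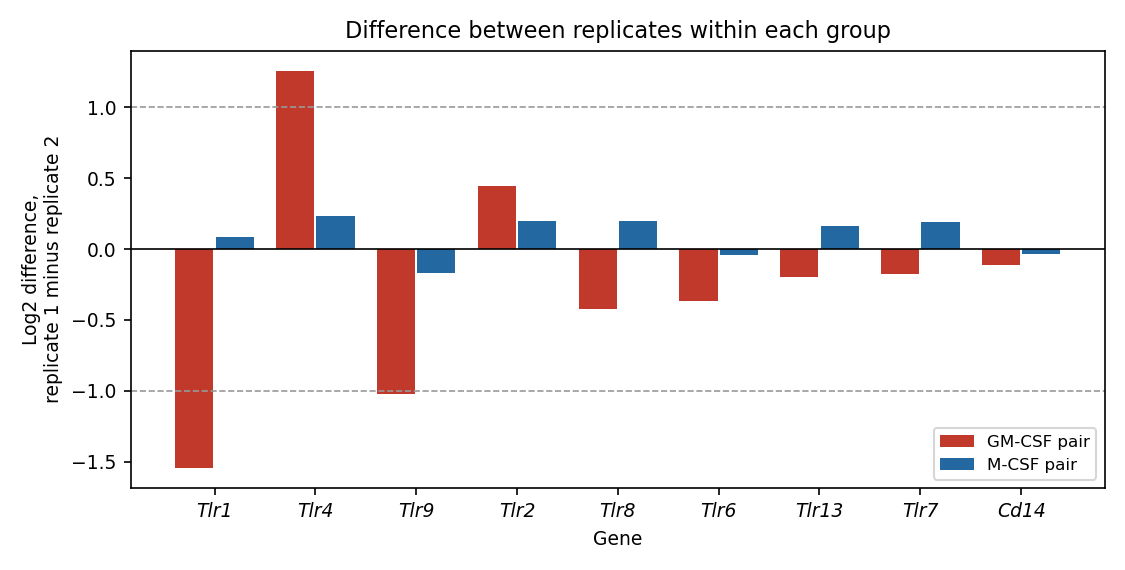
Log2 difference between replicate 1 and replicate 2 (y axis) for each gene (x axis), red bars for the GM-CSF pair and blue bars for the M-CSF pair, with dashed lines at a 2-fold difference. The GM-CSF bars of Tlr1 (-1.54), Tlr4 (1.26) and Tlr9 (-1.02) pass the dashed lines, and no M-CSF bar does.

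Markers of other cell types moved with some of these values. Both sorts asked for the Adgre1 protein, which B cells and most neutrophils lack, and that of the M-CSF cells also for CD11b. How pure the sorted cells were was not tested. Of 8 neutrophil markers, all named, 5 lay above the background reference in each group, and the mean of the list was 6.84 in GM-CSF replicate 1 against 6.14 in GM-CSF replicate 2 and 6.31 and 6.27 in the M-CSF replicates. S100a8, a calprotectin subunit, read 8.54 in GM-CSF replicate 1 and 7.04, 6.96 and 6.84 in the others. Also higher in GM-CSF replicate 1 than in GM-CSF replicate 2 were Ngp (9.02 against 7.02), Ltf (6.79 against 5.89), S100a9 (6.93 against 6.06) and Ly6g (6.18 against 5.45). Ngp read 8.40 and 7.83 in the M-CSF replicates. Mpo, Elane and Camp, other genes of that list, did not follow S100a8. They read 5.65, 5.78 and 5.86 in GM-CSF replicate 1 and 5.68, 5.96 and 6.03 in GM-CSF replicate 2. Mpo was lower in GM-CSF cells (adjusted p = 0.0132 with limma). The GM-CSF means of Mpo and Elane lay below the background reference and that of Camp just above it. Ly6g lay below it in the mean of both groups, so these values are near the floor. The 6 markers of mast cells, basophils and eosinophils had a mean of 5.35 in GM-CSF replicate 1 against 4.78, 4.75 and 4.88 in the others, with 1 of the 6 above the reference in each group. Tlr4 was highest in GM-CSF replicate 1, and Tlr1 and Tlr9 were lowest there. Of 8 dendritic cell markers, 6 lay above the reference with GM-CSF and 3 with M-CSF. The list means were 6.97 and 6.73 against 5.79 and 5.83. In limma 3 were higher in GM-CSF cells, Itgax, Clec9a and Ccr7, with log2 differences of 4.53, 2.44 and 1.16. Zbtb46 (0.25) and Cd209a (0.61) were higher in both GM-CSF arrays without passing. Flt3 (-0.32), Xcr1 (-0.19) and Batf3 (-0.15) were lower in both, also without passing. Of these, Flt3 and Xcr1 lay below the background reference in both groups, so their direction says little. B cells carry Tlr9 and Tlr1, and of 5 named B cell markers of 6, Cd79b was lower in GM-CSF cells (7.69 and 7.95 against 10.16 and 10.21). Cd79a, Ms4a1 and Ebf1 stayed below the reference in all 4 arrays, and the list mean was 5.41 and 5.50 with GM-CSF, against 6.09 and 6.21 with M-CSF. Plasmacytoid dendritic cells are rich in Tlr7 and Tlr9, and of 5 named markers of 6, 3 lay above the reference in each group and none passed the test. Siglech, the most specific of them, read between 5.62 and 5.76, below the reference, in every array. Tcf4 read 8.83 and 9.16 against 9.28 and 9.29, and Cox6a2 7.57 and 7.71 against 8.01 and 8.48. Both were lower in both GM-CSF arrays, as Tlr9 was. Ccr9, too dim to be tested, went the other way, with 4.97 and 5.27 against 4.48 and 4.70. Bst2 overlapped, with 9.10 and 9.86 against 9.34 and 9.24. The part of other cell types in the receptor values was not tested.

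Among co-receptors and ligand delivery genes, 1 of 9 was higher in GM-CSF cells, 1 lower, and 7 did not pass. Of all genes tested, 6.18% were higher and 4.53% lower. Clec7a, the beta-glucan receptor dectin-1 that signals together with TLR2, read 10.92 and 10.35 with GM-CSF, against 7.36 and 7.03 with M-CSF, a log2 difference of 3.44 ± 0.21 SE (adjusted p = 0.000511 with limma). Ly86, which encodes MD-1, the partner of the Toll-like receptor relative CD180, read 10.87 and 11.13 against 11.54 and 11.62. It was lower in GM-CSF cells by a small step (log2 -0.58 ± 0.13 SE, adjusted p = 0.0399 with limma), and it lost its call without M-CSF replicate 1 (limma, adjusted p = 0.247), without M-CSF replicate 2 (0.284) and with no filter on dim genes (0.0555). Ly96, the partner with which TLR4 binds lipopolysaccharide, differed by -0.20 ± 0.13. Lbp, the lipopolysaccharide-binding protein, read 8.32 and 7.28 against 8.70 and 8.39, a difference of -0.74 ± 0.33. Cd36, a scavenger receptor that passes lipids to TLR2, differed by 0.38 ± 0.18. The median of the list was -0.065, and 2 of the 9 had an unadjusted p under 0.05 (limma), against 25.5% of all genes tested.

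Among genes that fold, move or cut Toll-like receptors, 1 of 13 was higher and 0 lower, against 6.18% and 4.53% of all genes tested. The median of the list was 0.037. Of the 13, 5 had an unadjusted p under 0.05 (limma), against 25.5% of all genes tested. Ctss, the endosomal protease cathepsin S, read 12.45 and 12.67 against 11.74 and 11.64 (log2 0.87 ± 0.12 SE, adjusted p = 0.00852 with limma). With M-CSF replicate 1 or 2 left out it was not called (adjusted p = 0.112 or 0.141, limma). Cathepsin S also trims the invariant chain of MHC class II, for which the GM-CSF cells were sorted. Lgmn, an asparagine endopeptidase that helps process TLR7 and TLR9, just missed the threshold at -0.58 ± 0.14 (adjusted p = 0.0526 with limma). It passed as lower in several other settings, such as array weights (limma, adjusted p = 0.039). Unc93b1 differed by -0.25 ± 0.13, Cnpy3, a chaperone of surface and endosomal receptors, by 0.32 ± 0.10, and Slc15a4, a lysosomal transporter needed for TLR7 and TLR9 signalling, by -0.33 ± 0.11.

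Of the adaptors and first kinases, 0 of 20 passed in limma at an adjusted p under 0.05, against 10.7% of all genes tested. With so few genes, 0 of 20 is not far from that share. At an unadjusted p under 0.05 in limma, 4 of the 20 passed, against 25.5% of all genes tested. Myd88, the adaptor shared by nearly all of these receptors, differed by 0.19 ± 0.11, and the median of the list was 0.10. The farthest were Ikbke, an interferon-pathway kinase (-0.66 ± 0.19), Tab2, which links TRAF6 to the kinase TAK1 (-0.43 ± 0.12), Irak2, a kinase of the MyD88 complex (0.41 ± 0.13), and Irf5, a transcription factor of inflammatory cytokines (0.38 ± 0.14). Irak4, Traf3 and Chuk had no probe set named here.

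Of the inhibitors of the pathway, 1 of 15 tested was higher and 0 were lower, against 6.18% and 4.53% of all genes tested. The median was 0.18. An unadjusted p under 0.05 was found in limma for 3 of the 15, against 25.5% of all genes tested. Socs1, a feedback inhibitor of cytokine signalling that also restrains Toll-like receptor responses, read 9.59 and 8.91 with GM-CSF, against 7.30 and 7.41 with M-CSF. It was higher by 1.90 ± 0.22 SE on the log2 scale (adjusted p = 0.00446 with limma). With M-CSF replicate 1 or 2 left out it was not called (adjusted p = 0.103 or 0.0947, limma). Dusp1, a phosphatase that turns off MAP kinases, read 10.11 and 11.60 in GM-CSF cells, around the M-CSF values of 10.20 and 10.37, so that its direction turned on the GM-CSF array kept (1.31 with replicate 2 alone and -0.17 with replicate 1 alone). Tnfaip3 and Otud7b, deubiquitinases of the NF-kB pathway, differed by 0.39 ± 0.14 and 0.35 ± 0.13 without passing. Among the other Toll-like receptors, Tlr3, which senses double-stranded RNA, differed by 0.30 ± 0.14 (adjusted p = 0.263 with limma), and Tlr12 was too dim to be tested, at 4.90 to 5.43.

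**Figure D4:**
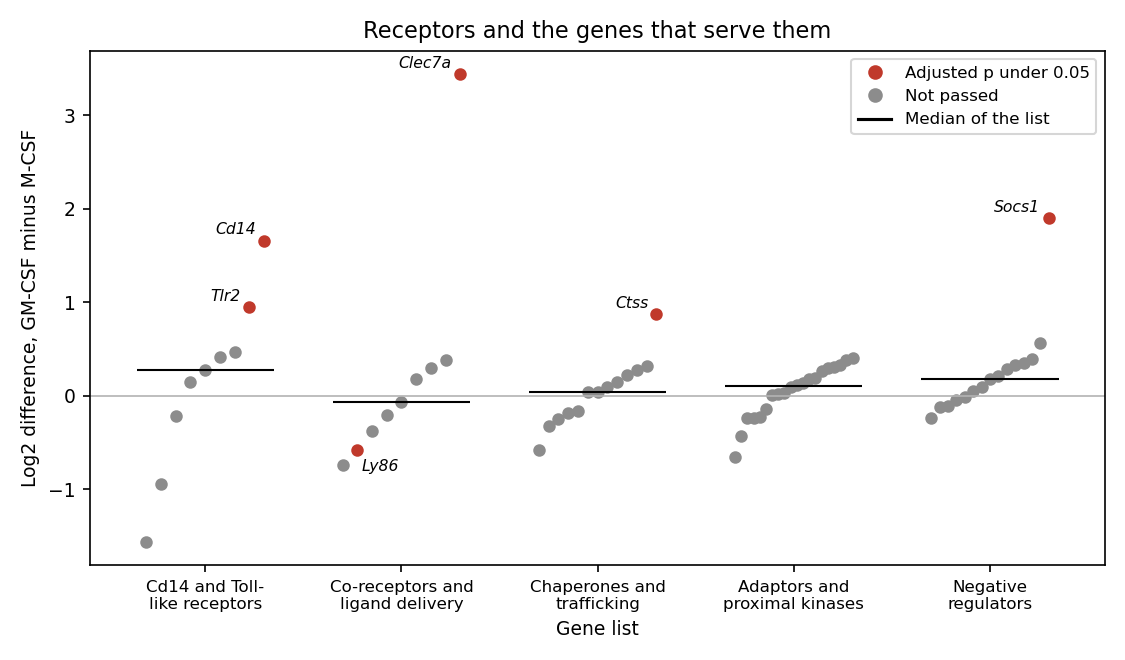
Log2 difference between GM-CSF and M-CSF cells (y axis) for each tested gene of Cd14 and the Toll-like receptors and of 4 lists of genes that serve them (x axis), red where the adjusted p was under 0.05 and grey otherwise, with the list median as a line. Clec7a (3.44), Socs1 (1.90), Cd14 (1.66), Tlr2 (0.95) and Ctss (0.87) are the red points above 0, and Ly86 (-0.58) the one below.

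The genes whose pattern over the 4 arrays was most like that of Cd14 or Tlr2 were ranked by the distance between mean-centred log2 values. For Cd14 these were Hvcn1, a proton channel of phagocytes (distance 0.088), Wfdc21 (0.10) and Plxna1, a semaphorin receptor (0.13). Hvcn1 read 11.30 and 11.50 with GM-CSF, against 9.78 and 9.72 with M-CSF, in tight pairs like those of Cd14. For Tlr2 they were Rab27a, a GTPase of secretory vesicles (0.041), Mical1, a regulator of actin (0.058), and Mxi1, a partner of the MAX transcription factor (0.078). Rab27a read 7.69 and 7.30 against 6.64 and 6.45, with GM-CSF replicate 1 above replicate 2, as for Tlr2. With 4 arrays such a distance measures little more than the group difference and the gaps within the pairs.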

How the data were processed

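Per the labels' protocols, 300 ng of total RNA per sample became biotin-labelled cDNA for 1-colour arrays of Affymetrix. The authors deposited log2 values for each probe set. Per the submitters' processing notes, these came from Affymetrix Expression Console 1.1 and its RMA method. RMA brings the arrays to one distribution and compresses differences of dim genes. Of 35556 probe sets, 21789 had exactly 1 gene symbol in the platform annotation, 1621 several and 12146 none listed; only the first were used. Positions of probe sets are not given. The probe set with the highest mean stood for each gene, and a gene was tested if 2 or more arrays exceeded their own 30th percentile. All 14995 such genes were fitted in R 4.3.3 by lmFit and eBayes of limma 3.58.1 (two-sided tests, with 2 residual degrees of freedom and a prior worth 4.17), with Benjamini-Hochberg adjustment at 0.05. A permutation of 2 against 2 arrays cannot go below 0.333. Differences are GM-CSF minus M-CSF. The fit was also run on simulated data with equal spread in both groups, which does not cover the wider spread of the GM-CSF pair. Python 3.11.15, pandas 2.3.3 and matplotlib 3.10.9 made the tables and plots. The members and lists were chosen with earlier results of these data known. Named were the members, list genes that passed or were among the 4 farthest of their list, the 3 nearest patterns, and other genes whose role is described, these last chosen after their values were seen. Scan dates and batches were not in the sources used here. Arrays were left out in turn, and 9 other settings were tried.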

Additional observations from a re-analysis of the deposited data

How the results depend on the processing

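The number of arrays limits the precision, and the GM-CSF pair is the wider one. With an array left out, the genes called ran from 233 to 3205 against 1605 (168 to 1683 higher and 65 to 1522 lower), and the members called from 1 to 6 against 2. The larger counts come from fits that lack a GM-CSF array and take their spread from the closer M-CSF pair, in which the lone array is assumed to vary like the other group, so they add no support. In those fits Tlr1 (-2.33 to -0.79), Tlr4 (-0.16 to 1.10), Tlr6 (-0.40 to -0.031), Tlr8 (0.069 to 0.49), Tlr9 (-1.46 to -0.44) and Tlr13 (0.31 to 0.51) each passed at least once. Tlr4 passed at 1.10 without GM-CSF replicate 2, and its direction reversed to -0.16, without passing, when GM-CSF replicate 1 was left out (limma, adjusted p = 0.558). Tlr2 ran from 0.73 to 1.17 and did not pass without M-CSF replicates 1 (1.05) or 2 (0.85). Dusp1 turned to -0.17 without GM-CSF replicate 2 and read 1.31 without replicate 1. Among the settings with all 4 arrays, Tlr1 passed with array weights (-1.56, limma adjusted p = 0.049) and Tlr9 with the replicate block (-0.95, limma adjusted p = 0.0462), and the other 79 member values kept their direction and their side of the threshold. Same-numbered replicates deviated together only weakly (r = 0.065 across genes, 2 pairs), so the numbers were not taken as pairs, and the replicate block called 1640 genes. Centring on the medians of the genes tested, added after seeing the data, moved all differences by -0.043 and changed no member's call.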
